A study of Mus musculus with 8 samples.

Results

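Genes used as markers of dendritic cells were examined in the RNA of hepatic macrophages. The set held 10 genes of the 55401 in the deposited gene table, found by their symbols: *Cd207*, *Flt3*, *Zbtb46*, *Batf3*, *Siglech*, *Cd209a*, *Clec9a*, *Itgae*, *Fscn1* and *Epcam*. *Cd207* was chosen by its measured response in these same libraries, a larger fall with cholesterol crystals in macrophages of steatotic livers, so its values are given as a description with no test. The other 9 genes were listed as markers, and the 7 of them that passed a filter on low values were tested. Macrophages had been taken from mouse livers with anti-F4/80 antibodies on magnetic columns, on a C57BL/6J background. Normal livers came from wild-type mice on a standard diet, and steatotic livers from MC4R-KO mice, which lack the melanocortin 4 receptor, on a Western diet for 6 to 10 wk, so genotype and diet cannot be told apart. All cells were plated on collagen and received vehicle (Veh) or cholesterol crystals (CC, 500 μg/ml) for 24 h, the latter being solid cholesterol that macrophages take up into lysosomes, which gave 4 groups of 2 libraries. The labels do not say whether the libraries of a group came from separate animals or cultures, so p-values measure the spread between libraries, which may be technical.

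Dendritic cells take up antigen and present it to T cells. Conventional dendritic cells arise from precursors that need the receptor FLT3, and their lineage is marked by the transcription factor ZBTB46. Type 1 cells depend on BATF3 and carry CLEC9A and XCR1, type 2 cells carry CD209A and CLEC10A, plasmacytoid cells carry SIGLECH, and cells that mature and migrate to lymph nodes make the actin-bundling protein fascin (FSCN1) and the receptor CCR7. Langerin, the product of *Cd207*, is a C-type lectin that forms the Birbeck granules of Langerhans cells, the antigen-presenting cells of the epidermis, which also carry the adhesion molecule EPCAM. Kupffer cells are the resident macrophages of the liver, and several of these genes are shared with them, with T cells or with bile duct cells.

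Total counts ranged from 58668655 to 74529462 per library. Levels are given as CPM, the counts of a gene per 1e6 counts of its library, after TMM scaling by factors of 0.981 to 1.03. Small values held an excess of multiples of 4, from which 1 sequenced fragment was taken to stand for about 4 counts, so 3 fragments correspond to 0.161 to 0.205 CPM in a library. This floor covers counting error only. The test took genes that reached 0.5 CPM in 1 library or more, which 8 of the 10 did, while *Itgae* and *Cd209a* stayed below. *Mc4r* had 0 counts in all 4 libraries labelled normal and 22 to 72 counts in the others, the reverse of what the knockout label implies if its allele gives no reads, so groups are named by their labels, on which every direction between livers rests. The macrophage marker *Adgre1*, which encodes F4/80, lay between 814 and 1753 CPM, and *Csf1r* between 1092 and 1704 CPM. In RNA of whole cultures, fewer cells of a type and less RNA per cell cannot be told apart.

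*Cd207* spans 6 exons on the minus strand of chromosome 6, from 83671215 to 83677857 (GRCm38, or mm10, the build of all gene positions given here). The next gene on its 3′ side is *Clec4f*, a C-type lectin gene used as a marker of Kupffer cells, 15.0 kb away on the same strand with no annotated gene between them. The 250 bases before the start of *Cd207* (RefSeq, GRCm38.p6, chr6:83677858-83678107, minus strand, 5′ to 3′) are shown because this gene had the highest level of the set. Capitals mark the one match to the motifs searched.

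Cd207 promoter: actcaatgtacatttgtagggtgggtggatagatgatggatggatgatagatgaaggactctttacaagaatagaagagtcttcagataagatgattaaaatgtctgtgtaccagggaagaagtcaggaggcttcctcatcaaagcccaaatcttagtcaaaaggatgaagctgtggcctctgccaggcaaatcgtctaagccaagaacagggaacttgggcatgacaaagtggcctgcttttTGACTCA

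The motifs were searched on both strands from 250 bases before to 50 bases after a RefSeq start of each gene. The capitals are a match to TGANTCA, the motif of AP-1 and BATF factors, which 7.81% of 32851 promoters of this length held. It was found in the promoter of *Cd207* and in the window taken for *Zbtb46*. That window, 181424339 to 181424638 on chromosome 2, lies within the span of *Zbtb46* from 181387762 to 181459426, away from its 5′ end. The *Batf3* window, 191098164 to 191098463 on chromosome 1, also lies within its gene, which starts at 191097847. CACGTG, an E-box that MiT/TFE factors can bind, was found in the promoters of *Flt3*, *Batf3*, *Siglech* and *Epcam*, and in 7.15% of all promoters. GAGGAAGT, a PU.1 motif, and the interferon-stimulated response element were found in none of the 9 promoters and in 3.2% and 3.44% of all promoters. A promoter sequence for *Itgae* was not used here. These matches are descriptions of the letters in the window.

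*Cd207* had the highest level of the set per kb of exon in all 8 libraries. Its level was 82.7 and 75.5 CPM with the label normal and Veh, and 46.4 and 44.9 CPM with CC. With the label steatotic it was 49.4 and 57.3 CPM with Veh, and 10.1 and 10.7 CPM with CC. The groups followed the order normal with Veh, steatotic with Veh, normal with CC and steatotic with CC, and no pair of groups overlapped, although the groups in the middle, at 53.4 ± 5.60 and 45.6 ± 1.07 CPM (SD, n = 2), lay closest together.

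The fitted log2 change of *Cd207* with CC was −0.79 (SE 0.085) with the label normal, a level 1.73-fold lower. It was −2.36 (SE 0.090) with the label steatotic, a level 5.13-fold lower. The difference between these responses, which is the value *Cd207* was selected on, was −1.56 (SE 0.121) on the log2 scale. It ranged from −1.68 to −1.45 when each library was left out in turn. Between livers, the log2 difference of *Cd207*, steatotic against normal, was −0.57 with Veh and −2.13 with CC.

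**Figure D1:**
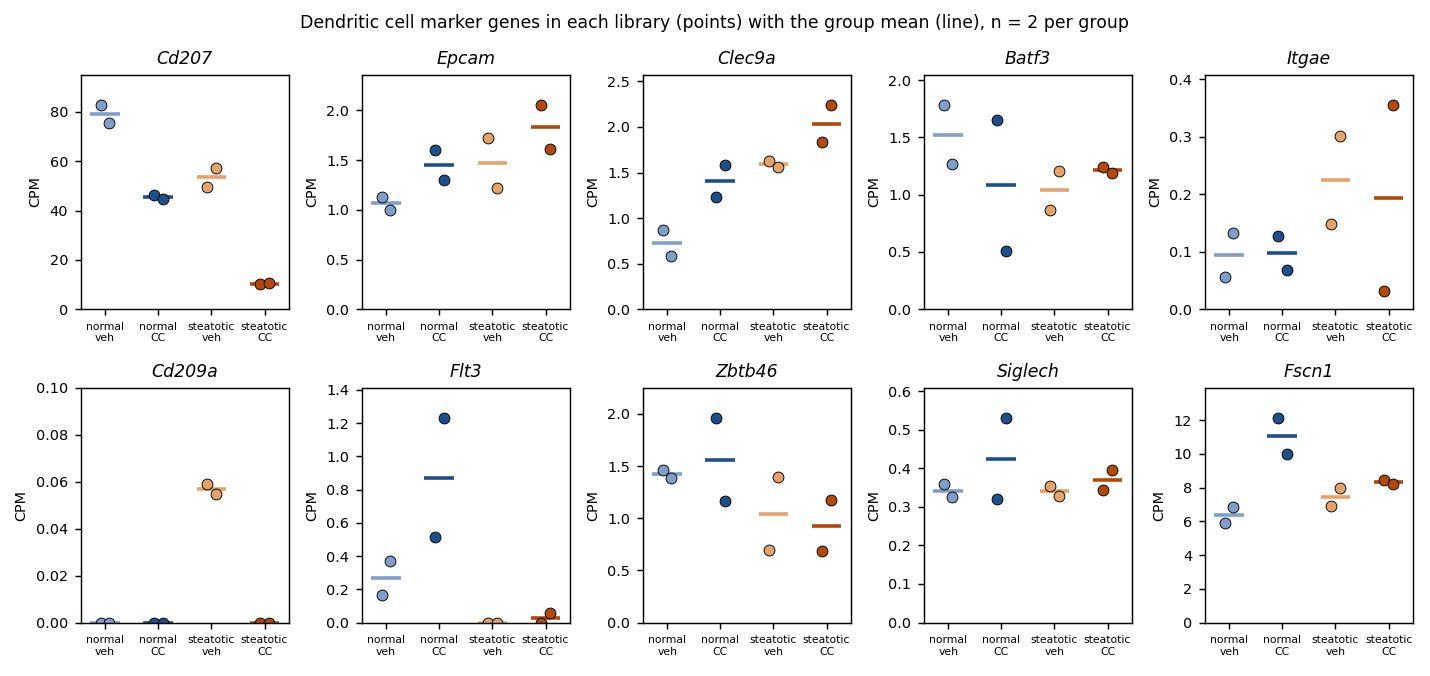
Level of each of the 10 genes in CPM (vertical axes, each from 0 and with its own scale) in the 4 groups, with points for single libraries and lines for the mean of 2. *Cd207* is at 10.1 and 10.7 CPM in the libraries labelled steatotic with CC, *Clec9a* is lowest with the label normal and Veh, *Fscn1* is highest with the label normal and CC, and *Flt3* is at or near 0 with the label steatotic.

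Per kb of exon, the mean level of *Cd207* over the 8 libraries was 31.0 CPM per kb, with a range from 6.66 to 54.3. Exons of all annotated transcripts were merged, which gave 1522 bases for *Cd207* with 1 transcript and 5103 for *Clec1b* with 4. Comparisons between genes therefore depend in part on the annotation. *Clec4f* had 35.2 CPM per kb (17.6 to 53.8) and the Kupffer cell gene *Vsig4*, a complement receptor, 178 CPM per kb. Within the set, *Fscn1* came next to *Cd207* with 2.76 CPM per kb (1.96 to 4.02), and these 2 ranges did not overlap. *Batf3*, *Epcam* and *Clec9a* followed with 0.761, 0.663 and 0.438 CPM per kb, and their ranges overlapped. *Zbtb46* had 0.146, *Siglech* 0.109, *Flt3* 0.0472, *Itgae* 0.0333 and *Cd209a* 0.00898 CPM per kb. These means cover groups that differ. *Cd207* and *Clec4f* had 51.9 and 53.3 CPM per kb with the label normal and Veh, and 6.84 and 19.1 CPM per kb with the label steatotic and CC, where *Clec1b*, a further Kupffer cell lectin gene, had 12.8.

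**Figure D2:**
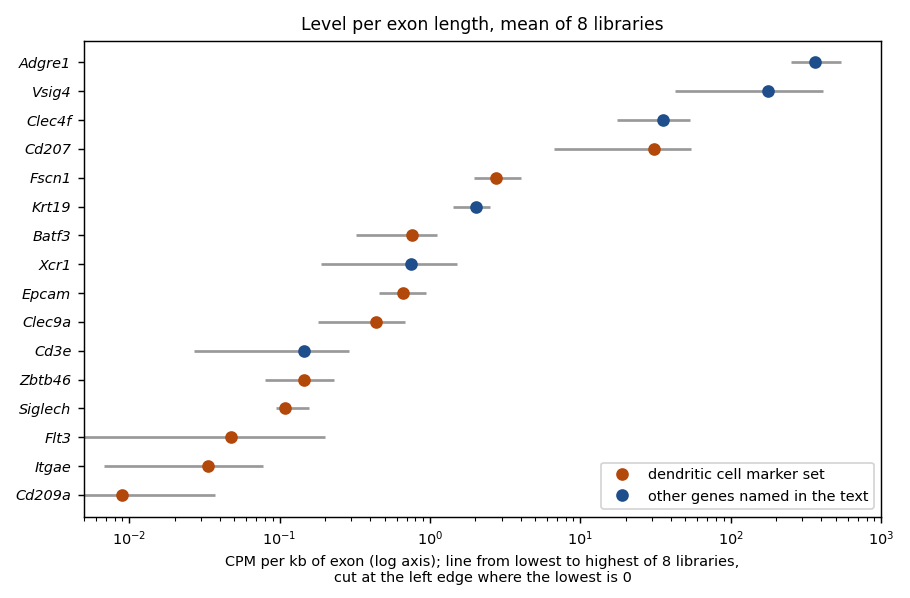
Mean level over 8 libraries in CPM per kb of exon (log axis), with lines from the lowest to the highest library, for the 10 genes and for reference genes of macrophages, bile duct cells, T cells and type 1 dendritic cells. *Cd207* has a mean of 31.0 and *Clec4f* of 35.2 CPM per kb over groups that differ, while the means of the other 9 genes lie at or below 2.76.

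The levels of *Clec4f*, the neighbour of *Cd207*, ran from 130 and 133 CPM with the label normal and Veh to 43.5 and 50.8 CPM with the label steatotic and CC. With CC, *Clec4f* fell with the label normal (log2 change −0.78, SE 0.078, adjusted p = 0.000783) and with the label steatotic (−0.98, SE 0.079, adjusted p = 0.000104), by edgeR's quasi-likelihood test with Benjamini-Hochberg adjustment. The difference between its CC responses was −0.20 (SE 0.110, adjusted p = 0.489 by the same test). *Cd207* and *Clec4f* thus shared the order of the groups, with a wider span for *Cd207*. Of the 11 Kupffer cell markers, 6 fell with CC and none rose with the label normal, beside 5.54% and 6.27% of all tested genes, and 9 fell and 1 rose with the label steatotic, beside 10.9% and 12.0%. Between livers at Veh, 5 of the 11 were higher with the label steatotic and 4, *Clec4f* among them, lower. Of all tested genes, 16.4% were higher and 14.3% lower in that contrast. *Vsig4* was the 1 marker of this list called for the difference between the CC responses (−0.50, adjusted p = 0.0367), with log2 changes of −2.26 and −2.76. The part of a change in Kupffer cell content in the values of *Cd207* was not tested.

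The 5 genes whose log2 CPM followed that of *Cd207* most closely over the 8 libraries, of 12591 compared, were *Id1*, *Adcy3*, *Epor*, *Ccdc86* and *Akt1*, with Pearson's r of 0.994, 0.994, 0.993, 0.988 and 0.988. These points share their libraries and fall into 4 groups, so r describes mostly the order and spacing of the groups. *Id1* encodes an inhibitor of basic helix-loop-helix factors that responds to BMP signalling. It had 43.5 and 39.4 CPM with the label normal and Veh and 19.4 and 21.2 CPM with the label steatotic and CC. *Adcy3*, an adenylyl cyclase gene, ran from 73.6 and 74.0 CPM to 15.3 and 14.1 CPM between the same groups. *Epor*, the erythropoietin receptor gene, had 2.96 and 3.41 CPM with the label normal and Veh and 0 counts in both libraries labelled steatotic with CC. *Ccdc86*, which encodes a nucleolar protein, and *Akt1*, which encodes a kinase of insulin and growth factor signalling, had smaller spans.

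**Figure D3:**
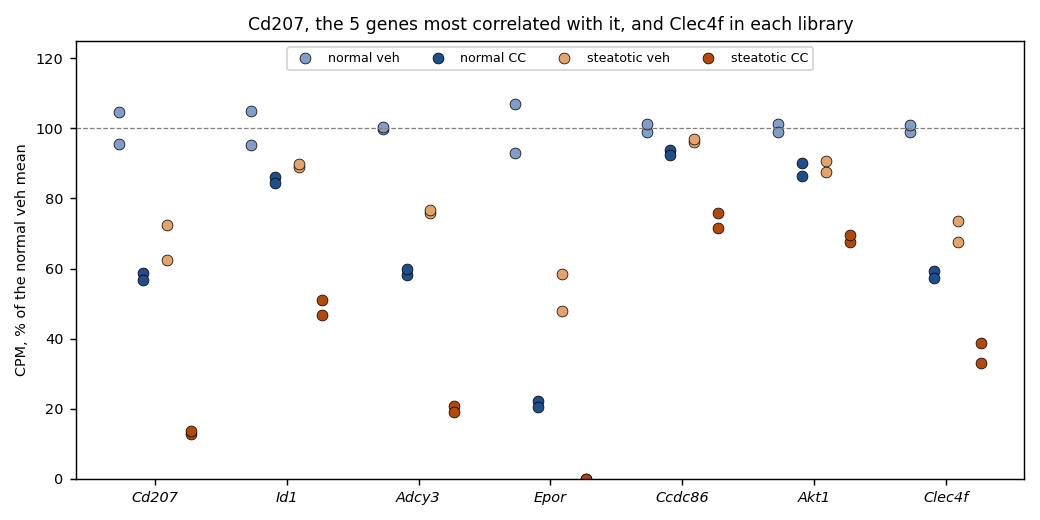
Level in each of the 8 libraries as a percentage of the mean of the libraries labelled normal with Veh (vertical axis from 0), for *Cd207*, the 5 genes most correlated with it and *Clec4f*, with points for single libraries in group colours. In each gene the libraries labelled steatotic with CC are lowest. *Epor* is at 0 there, and *Cd207* is at 12.8% and 13.5% of the reference.

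The other Langerhans cell gene of the set, *Epcam* (chromosome 17, 87635979 to 87651129, plus strand, 10 exons), did not follow *Cd207*. It had 1.13 and 1.00 CPM with the label normal and Veh, 1.60 and 1.30 with CC, 1.73 and 1.22 with the label steatotic and Veh, and 2.05 and 1.61 with CC. The libraries labelled normal with Veh lay below all others, and those labelled steatotic with Veh overlapped both groups with CC. *Epcam* passed the test in none of the 5 contrasts (adjusted p between 0.264 and 0.937, edgeR's quasi-likelihood test). Its log2 change with CC with the label steatotic was 0.32, with a 95% interval from −0.33 to 0.96. *Epcam* is also a marker of bile duct cells, whose keratin genes were present in every library. The bile duct marker *Krt19* had 2.64 to 4.68 CPM and did not pass the test in any contrast, while *Krt8* (0.53, adjusted p = 0.0438) and *Krt18* (0.51, adjusted p = 0.014) were higher with the label steatotic at Veh. The summed level of the 12 bile duct markers was 29.6 to 35.6 CPM with the label normal and Veh and 45.5 to 52.8 CPM with the label steatotic and Veh. The part of bile duct cells in the values of *Epcam* was not tested.

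Among the Langerhans cell genes listed, the connexin gene *Gjb2* stayed under the filter. Of the 7 tested besides *Cd207*, 2 rose with CC with the label normal, where 6.27% of all tested genes rose. With the label steatotic 1 rose and 1 fell, near the shares of all tested genes, 12.0% and 10.9%. *Ahr*, which encodes the aryl hydrocarbon receptor, rose in both (log2 changes 0.50 and 0.69, adjusted p = 0.0223 and 0.00266). *Runx3*, a transcription factor gene that Langerhans cells and lymphocytes both need, was higher with the label steatotic at Veh (2.87, SE 0.23, adjusted p = 6.96e-05). *Mfge8*, which encodes a secreted protein that links dying cells to phagocytes, had 5.47 and 5.72 CPM with the label normal and CC and 11.2 and 11.7 CPM with the label steatotic and CC (log2 difference 1.03, SE 0.22, adjusted p = 0.0108). *Ltc4s*, which makes leukotriene C4, fell with CC with the label steatotic from 0.457 and 0.588 CPM to 0.0546 and 0.171 CPM (adjusted p = 0.0251).

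Among the type 1 genes, *Clec9a* was higher in macrophages labelled steatotic. *Clec9a* (chromosome 6, 129408862 to 129424763, plus strand, 7 exons) encodes a receptor for actin exposed on dead cells. Its level was 0.870 and 0.590 CPM with the label normal and Veh, 1.23 and 1.59 CPM with CC, 1.62 and 1.56 CPM with the label steatotic and Veh, and 1.84 and 2.24 CPM with CC. The libraries labelled normal with Veh were lowest and did not overlap any other group, and those labelled steatotic with CC were highest. At Veh, the log2 difference, steatotic against normal, was 1.12 (SE 0.287, 2.17-fold, adjusted p = 0.0218 by edgeR's quasi-likelihood test with Benjamini-Hochberg adjustment). Of the 7 tested genes other than *Cd207*, *Clec9a* was the only one called higher at Veh, where 16.4% of all 15202 tested genes were called higher. The call was lost without normal Veh replicate 2 (adjusted p = 0.107), without steatotic Veh replicate 1 (0.0784) and without steatotic Veh replicate 2 (0.0654). With CC, the difference between livers was 0.53 (SE 0.278, adjusted p = 0.207).

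The log2 difference of *Clec9a* between CC and Veh in the libraries labelled normal, 0.95 (SE 0.288), did not pass the test after adjustment (adjusted p = 0.0808), nor did that with the label steatotic (0.36, SE 0.276, adjusted p = 0.428). The difference between these responses was −0.59, with a 95% interval from −1.52 to 0.34. *Clec9a* shares 184 bases of exon with *Clec1b*, a Kupffer cell lectin gene on the same strand, so that reads there could be assigned to either gene. *Clec1b* had 51.6 to 72.2 CPM in the 8 libraries, and its log2 difference between livers at Veh was −0.000263 (SE 0.0937). The part of *Clec1b* reads in the values of *Clec9a* was not tested.

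*Batf3* (chromosome 1, 191097847 to 191108945, plus strand, 5 exons) encodes the transcription factor that type 1 dendritic cells require. It had 1.78 and 1.27 CPM with the label normal and Veh, 1.65 and 0.512 CPM with CC, 0.871 and 1.20 CPM with the label steatotic and Veh, and 1.24 and 1.19 CPM with CC. The libraries labelled normal with Veh lay above both groups labelled steatotic, by less than the gap between replicates, and those labelled normal with CC overlapped every other group. *Batf3* was called in no contrast (adjusted p between 0.458 and 0.849). At Veh its log2 difference between livers was −0.56, with a 95% interval from −1.73 to 0.62.

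*Itgae* (chromosome 11, 73090583 to 73147446, plus strand, 31 exons) encodes the integrin chain CD103 of type 1 dendritic cells and of T cells in epithelia. It stayed under the filter, with 4 and 9 counts with the label normal and Veh, 8 and 4 with CC, 10 and 22 with the label steatotic and Veh, and 2 and 26 with CC. Both groups labelled normal lay under those labelled steatotic with Veh, the libraries labelled steatotic with CC were the lowest and the highest of all, and 6 of the 8 values were below the 12 counts that 3 fragments give. The T cell genes *Cd3e* and *Cd8a*, chosen after their values were seen, were higher with the label steatotic at Veh. *Cd3e* had 0.111 to 0.265 CPM with the label normal and 1.18 CPM in both libraries labelled steatotic (log2 difference 2.64, adjusted p = 0.00538), and *Cd8a* 0.0553 to 0.133 CPM and 1.81 to 2.01 CPM (adjusted p = 0.00062). Of the 12 T cell markers, 6 were higher and none lower in that contrast, beside 16.4% and 14.3% of all tested genes. The summed level of the 12 genes was 167 to 172 CPM with the label normal and 173 to 183 CPM with the label steatotic, of which *Il7r* alone made up 161 to 167 and 159 to 168 CPM. The part of T cells in the values of *Itgae* was not tested.

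Of the 12 tested genes of the type 1 list, 7 were higher and 2 lower with the label steatotic at Veh, beside 16.4% and 14.3% of all tested genes. *Cd36*, a scavenger receptor gene that macrophages also use, was at 935 to 961 CPM with the label normal and 1367 to 1504 CPM with the label steatotic (log2 difference 0.60, adjusted p = 0.00126). *Ifi205*, an interferon-induced gene, was higher by 0.23 (adjusted p = 0.00434). *Rab7b*, which encodes a GTPase of late endosomes and lysosomes, was lower by −0.68 (adjusted p = 4.14e-05). *Cadm1*, a cell adhesion gene, was not called at Veh (−0.15, adjusted p = 0.0922). *Xcr1*, the chemokine receptor gene that marks type 1 cells most closely, was named after its values had been seen. It had 1.27 and 0.855 CPM with the label normal and Veh, 0.834 and 1.04 with CC, 6.73 and 6.37 with the label steatotic and Veh, and 4.65 and 5.00 with CC, so that the 4 libraries labelled steatotic lay above the 4 labelled normal. Its log2 difference between livers was 2.62 at Veh (SE 0.23, adjusted p = 0.000116) and 2.36 with CC (SE 0.23, adjusted p = 0.000248), against 1.12 and 0.53 for *Clec9a*.

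The precursor receptor gene *Flt3* (chromosome 5, 147330741 to 147400489, minus strand, 25 exons) was found with the label normal and nearly absent with the label steatotic. It had 12 and 25 counts with the label normal and Veh, 32 and 72 counts with CC, 0 and 0 counts with the label steatotic and Veh, and 0 and 4 counts with CC. No library labelled steatotic reached the lowest library labelled normal. *Flt3* passed the filter only through the libraries labelled normal with CC, at 0.513 and 1.23 CPM, the group where it was highest. Without this filter, with all genes with any count kept, its adjusted p between livers was 0.00815 at Veh and 0.00888 with CC. At Veh with the filter it was called lower with the label steatotic (adjusted p = 0.0285, edgeR's quasi-likelihood test with Benjamini-Hochberg adjustment). About 9 fragments with the label normal stood against 0 with the label steatotic. The ratio, normal to steatotic, was 3.20 when 3 fragments over the group are set as the floor. That value takes the fragments with the label normal as exact, while the exact counting interval of the ratio had a lower limit of 2.05. Of all tested genes, 14.3% were called lower in that contrast.

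With CC, *Flt3* was again called lower with the label steatotic (adjusted p = 0.0228), where 12.9% of tested genes were lower and 15.9% higher. About 26 fragments stood against 1, a ratio of 30.1 with an exact 95% counting interval from 4.94 to 1234. The call at Veh was lost without normal Veh replicate 2 (adjusted p = 0.0904), steatotic Veh replicate 1 (0.0845) or steatotic Veh replicate 2 (0.0872), and also with counts divided by 4 (0.0648). The call with CC was lost without normal CC replicate 2 (0.101) or steatotic CC replicate 1 (0.0757). *Flt3* was not called between CC and Veh with either label (adjusted p = 0.315 and 0.309).

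*Zbtb46* (chromosome 2, 181387762 to 181459426, minus strand, 6 exons) had 1.46 and 1.39 CPM with the label normal and Veh, 1.96 and 1.16 CPM with CC, 0.693 and 1.40 CPM with the label steatotic and Veh, and 0.685 and 1.17 CPM with CC. In both groups labelled steatotic, 1 library lay under every library labelled normal and the other within their range. *Zbtb46* was called in no contrast (adjusted p between 0.266 and 0.900), and its log2 difference between livers with CC was −0.74, with a 95% interval from −1.78 to 0.29.

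Of the 8 tested precursor genes, 3 were higher with the label steatotic at Veh and, besides *Flt3*, none was lower, while 16.4% of all tested genes were higher and 14.3% lower. *Kit*, the receptor gene for stem cell factor, was at 3.18 to 3.39 CPM with the label normal and 6.76 to 7.01 CPM with the label steatotic (1.07, adjusted p = 0.0025). *Havcr2*, which encodes the receptor TIM-3, was higher by 1.21 (adjusted p = 2.35e-05), and *Traf1*, an adaptor gene of TNF receptors, by 1.03 (adjusted p = 0.03). *Id2*, which encodes an inhibitor of helix-loop-helix factors, rose with CC with either label (0.64 and 0.71, adjusted p = 0.00149 and 0.00042).

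The ligand of FLT3 was measured too. *Flt3l* was at 6.40 to 6.69 CPM with the label normal and 6.58 to 7.82 CPM with the label steatotic at Veh (0.14, adjusted p = 0.46), and it was higher with the label steatotic with CC (0.42, adjusted p = 0.0426). *Kitl*, the ligand of KIT, was lower with the label steatotic at Veh (−0.83, adjusted p = 8.38e-06). *Csf2rb*, the common chain of the GM-CSF receptor, rose with CC with either label (1.06 and 1.03, adjusted p = 0.000695 and 0.000316), and *Csf1r*, the receptor for M-CSF, fell with either label (−0.46 and −0.50, adjusted p = 0.00495 and 0.00158). Of the 10 tested receptor and ligand genes, these were the 2 called with CC with each label, 1 higher and 1 lower. Of all tested genes, 6.27% rose and 5.54% fell with the label normal, and 12.0% and 10.9% with the label steatotic. Between livers at Veh, 1 of the 10 was higher and 2 were lower with the label steatotic, beside 16.4% and 14.3%.

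*Cd209a* (chromosome 8, 3743397 to 3748984, minus strand, 6 exons), a lectin gene of type 2 dendritic cells, had 4 counts in each library labelled steatotic with Veh and 0 in the other 6. About 1 fragment in a library is under the floor of 3 fragments, so no difference between groups was detectable at this depth. Of the 9 tested genes of the type 2 list, 5 were higher and 1 lower with the label steatotic at Veh, against 16.4% and 14.3% of all tested genes. *Clec12a*, a lectin gene of myeloid cells, was at 380 to 390 CPM with the label normal and 681 to 687 CPM with the label steatotic (0.83, adjusted p = 3.06e-06), and fell with CC with either label (−0.50 and −0.59, adjusted p = 0.00014 and 2.11e-05). *Tnip3*, a regulator of NF-κB signalling, was higher by 1.13 at Veh (adjusted p = 0.00431), and *Irf4*, a transcription factor gene of type 2 cells, was lower (−0.76, adjusted p = 0.0297). *Klf4*, a further factor of type 2 cells, rose with CC with the label normal (0.58, adjusted p = 0.0117) and the label steatotic (1.19, adjusted p = 0.000168).

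*Siglech* (chromosome 7, 55768178 to 55778925, plus strand, 6 exons), the lectin of plasmacytoid cells, was low in all libraries. It had 0.359 and 0.324 CPM with the label normal and Veh, 0.321 and 0.529 CPM with CC, 0.354 and 0.328 CPM with the label steatotic and Veh, and 0.342 and 0.396 CPM with CC. All groups overlapped, and 1 library labelled normal with CC was the highest. No contrast was called for *Siglech* (adjusted p between 0.775 and 0.998), and its 95% interval at Veh, from −1.19 to 1.19 on the log2 scale, allows differences of more than 2-fold in either direction. Of the 9 tested plasmacytoid genes, 3 were higher and 1 lower with the label steatotic at Veh, where 16.4% and 14.3% of all tested genes were. *Lag3*, an inhibitory receptor gene that lymphocytes also use, was at 0.354 to 0.456 CPM with the label normal and 6.16 to 6.43 CPM with the label steatotic (3.95, adjusted p = 7.14e-06). *Runx2*, a transcription factor gene, was higher by 2.80 (adjusted p = 8.7e-05) and rose with CC with either label (1.95 and 1.23). *Tcf4*, which encodes the master regulator of plasmacytoid cells, fell with CC with the label steatotic (−0.74, adjusted p = 0.037), and its log2 change with the label normal was −0.71 (adjusted p = 0.0682), with a difference between the responses of −0.03 (SE 0.258, adjusted p = 0.979). *Blnk*, an adaptor gene of B cell receptor signalling, rose with CC with the label steatotic (0.38, adjusted p = 0.0133).

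*Fscn1*, the gene of mature dendritic cells, rose with CC in macrophages labelled normal. *Fscn1* (chromosome 5, 142960343 to 142973185, plus strand, 8 exons) had 5.90 and 6.86 CPM with the label normal and Veh, 12.1 and 9.98 CPM with CC, 6.93 and 7.99 CPM with the label steatotic and Veh, and 8.48 and 8.21 CPM with CC. The libraries labelled normal with CC were above all others, and within each label the libraries with CC did not overlap those with Veh. With the label normal, the log2 change was 0.79 (SE 0.145, 1.73-fold, adjusted p = 0.0122 by edgeR's quasi-likelihood test with Benjamini-Hochberg adjustment). Of the 7 tested genes it was the only one called in that contrast, where 6.27% of tested genes rose and 5.54% fell. The call was lost without normal Veh replicate 1 (adjusted p = 0.0773) or normal CC replicate 1 (0.0727).

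With the label steatotic, the log2 change of *Fscn1* with CC was 0.16 (SE 0.144, 95% interval −0.18 to 0.50, adjusted p = 0.5). None of the 7 tested genes was called in that contrast by edgeR or by DESeq2, and 0 had an unadjusted p under 0.05, against 12.0% of all tested genes called higher and 10.9% lower. The difference between the CC responses of *Fscn1* was −0.63 (SE 0.204), which did not pass the adjustment (adjusted p = 0.197). In the test of this difference 1.95% of all tested genes were higher and 1.27% lower with the label steatotic, and none of the 7 tested genes was called by edgeR or DESeq2, with *Fscn1* the 1 gene with an unadjusted p under 0.05. With CC, *Fscn1* differed between livers by −0.40 (SE 0.144, adjusted p = 0.0741). Fibroblasts and endothelial cells also make fascin. The fibroblast marker *Dcn* rose with CC with either label, from 2.02 to 2.09 CPM to 5.70 to 7.01 CPM with the label normal and from 17.5 to 20.9 CPM to 110 to 138 CPM with the label steatotic, while 8 of the 11 stellate cell and fibroblast markers, the collagen genes included, were under the filter. Of the 11 tested endothelial markers, 2 rose and 1 fell with CC with the label normal, beside 6.27% and 5.54% of all tested genes, and 4 rose and 2 fell with the label steatotic, beside 12.0% and 10.9%. *Cdh5* rose with either label (0.44 and 0.26, adjusted p = 0.00411 and 0.0213), while *Dnase1l3* fell with either label (−0.54 and −1.13, adjusted p = 0.00833 and 7.38e-05) and *Pecam1* fell with the label steatotic, from 94.9 to 96.8 CPM to 36.2 to 41.4 CPM. The part of such cells in the values of *Fscn1* was not tested.

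**Figure D4:**
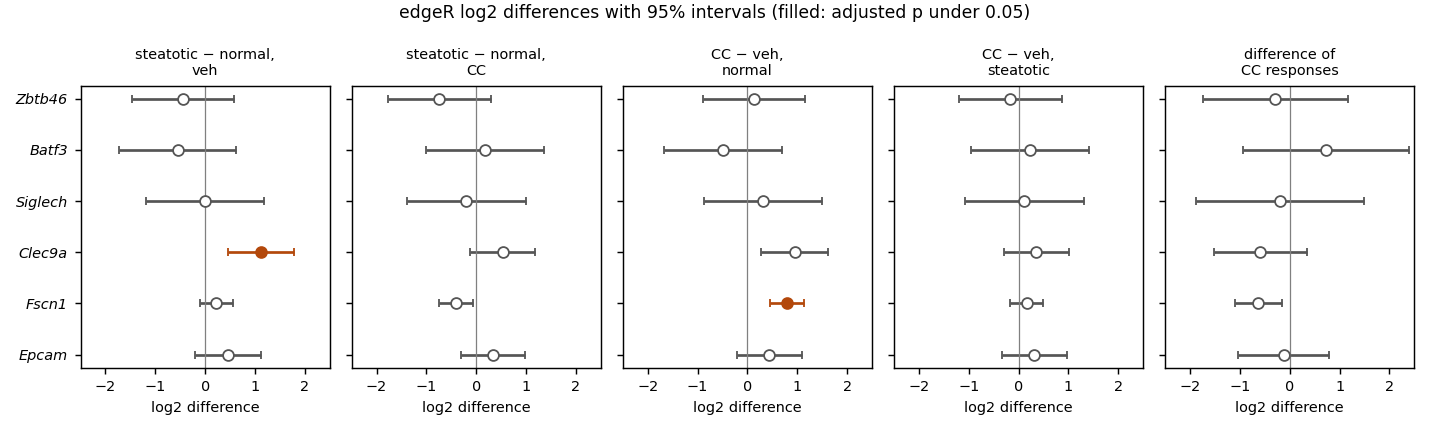
Fitted log2 differences (horizontal axes) with 95% intervals for the 6 tested genes with counts in every library, 1 panel for each contrast, with filled points for an adjusted p under 0.05. *Clec9a* is higher with the label steatotic at Veh (1.12) and *Fscn1* rises with CC with the label normal (0.79), while all intervals of *Zbtb46*, *Batf3*, *Siglech* and *Epcam* include 0.

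Several other genes of dendritic cell maturation rose with CC. Of the 17 tested, *Fscn1* included, 6 rose and 1 fell with the label normal, beside 6.27% and 5.54% of all tested genes, and 8 rose and 1 fell with the label steatotic, beside 12.0% and 10.9%. *Cd274*, which encodes the inhibitory ligand PD-L1, rose by 0.76 and 1.03 (adjusted p = 0.000123 and 9.95e-06). *Cd86*, a costimulatory gene, rose by 0.67 and 0.88, and *Cd83*, a maturation marker, by 0.65 and 0.68 on the log2 scale. *Marcksl1*, which encodes an actin-binding protein, was not called with the label normal (0.10, adjusted p = 0.381) and rose by 0.81 with the label steatotic (adjusted p = 9e-05). *Ccr7*, the receptor of migrating dendritic cells, was named after its values had been seen. It had 1.53 to 1.89 CPM with the label normal and 0.164 to 0.649 CPM with the label steatotic at Veh (−2.08, SE 0.59, adjusted p = 0.0391), and 4.71 to 5.85 against 0.683 to 1.28 CPM with CC (−2.43, adjusted p = 0.0191). Between livers, 6 of the 17 genes were higher and 3 lower with the label steatotic at Veh, beside 16.4% and 14.3% of all tested genes, and 8 higher and 3 lower with CC, beside 15.9% and 12.9%. Among the 6 higher at Veh were *Cd86* and *Cd274*, the latter at 228 to 237 CPM with the label normal and 419 to 432 CPM with the label steatotic. Besides *Ccr7*, the genes lower at Veh were *Cd83* (−0.79, adjusted p = 0.00141) and *Marcksl1* (−0.74, adjusted p = 9.63e-05), and those lower with CC were *Cd83* (−0.76, adjusted p = 0.00187) and *Ccl22*, a chemokine gene (−2.46, adjusted p = 0.0205).

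Over all 7 dendritic cell lists, 92 genes besides *Cd207* were listed and 70 were tested. With the label steatotic at Veh, 25 of 70 (35.7%) were higher and 9 (12.9%) lower, beside 16.4% and 14.3% of all tested genes. With CC, 28 (40%) were higher and 10 (14.3%) lower than with the label normal, beside 15.9% and 12.9%. The response to CC counted 14 higher (20%) and 6 lower (8.57%) with the label normal, beside 6.27% and 5.54% of all tested genes, and 21 higher (30%) and 11 lower (15.7%) with the label steatotic, beside 12.0% and 10.9%. Many of these genes are used by macrophages as well. The differences between livers came with markers of other cells: all 10 monocyte markers were higher with the label steatotic at Veh, with a summed level of 130 to 134 CPM with the label normal and 1127 to 1128 CPM with the label steatotic, and 9 of 10 NK cell markers were higher, with 8.64 to 9.37 CPM against 83.8 to 84.1 CPM. The part of these cells in the counts of dendritic cell genes was not tested.

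**Figure D5:**
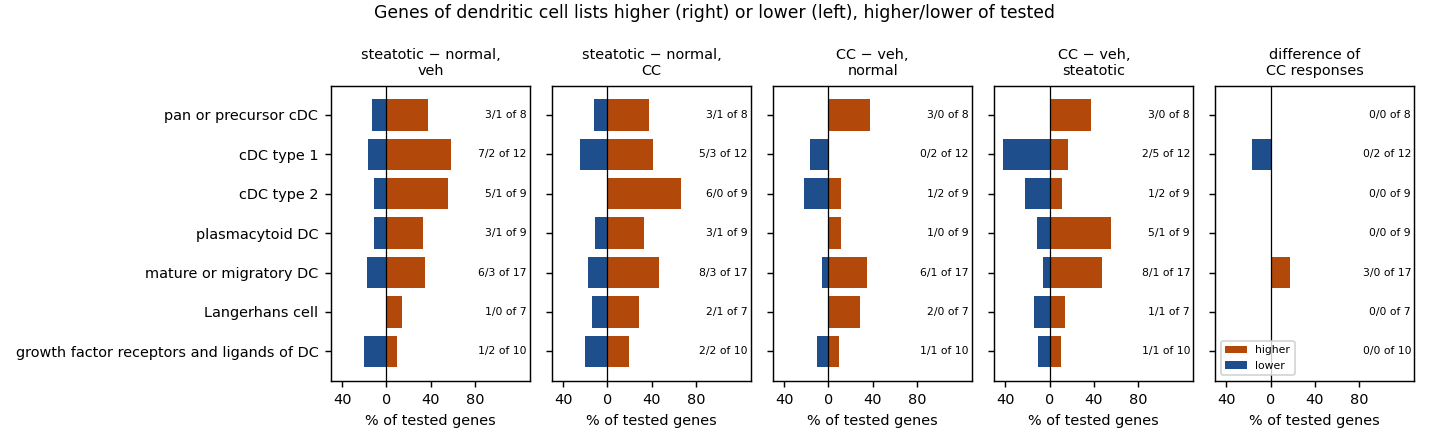
Share of tested genes of each of 7 dendritic cell lists called higher (bars to the right) or lower (bars to the left) by edgeR, in percent, 1 panel for each contrast, with the numbers higher and lower of those tested. The type 1 list has 7 of 12 genes higher with the label steatotic at Veh, and the maturation list has 8 of 17 genes higher with CC with the label steatotic.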

How the data were processed

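Per the labels, poly(A) RNA of hepatic macrophages was sequenced in 8 libraries, 2 in each of 4 groups. The authors ran fastp, HISAT2 on mm10 and StringTie on 150 bp read pairs (versions not given in the sources used here) and deposited estimated counts (expected counts) for 55401 genes, 1 column per library, not normalized and already whole. Of 28711 genes with any count, 15202 reached 0.5 CPM in 1 library or more and entered edgeR 4.0.16 (glmQLFit with robust estimation, glmQLFTest, TMM, R 4.3.3) in 1 model of 4 group means, adjusted by Benjamini-Hochberg over all tested genes in each of 5 contrasts, threshold 0.05. Alternatives were DESeq2 1.42.0, its size factors, library size only, other filters, counts divided by 4, a prior count of 4, a replicate block, a fit to the 4 libraries compared and leaving out each library. Genes and exon lengths were taken from GENCODE M21 (GRCm38), where exons of all transcripts were merged, and promoters from RefSeq (GRCm38.p6), which matched 9 of the 10 genes.

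The 10 genes, the 7 lists of dendritic cell genes and the 12 lists of other cell types were chosen with earlier results of these data known. Named were all 10 genes, of each dendritic cell list up to 4 further genes called in at least 1 contrast, those of highest mean CPM, the 5 genes most correlated with *Cd207* among those with a mean of at least 1 CPM, of each marker list the 2 genes of highest mean CPM, *Mc4r*, *Adgre1*, *Clec4f*, *Csf1r* and *Cd68*. Genes named outside this rule are *Vsig4*, *Krt19*, *Clec1b*, *Gjb2*, *Cd80*, *Relb*, *Dnase1l3*, *Ccl22*, *Cd14* and *S100a8* and those the text says were named later, all after their values had been seen. No set test was run on the lists. A result for 1 listed gene is not reported here.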

Additional observations from a re-analysis of the deposited data

Results flagged for a closer look

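The response to CC differed between the labels in 5 genes of the dendritic cell lists, by edgeR's test of the difference (log2 response with the label steatotic minus that with the label normal). None is among the 7 tested genes of the set. *Cd207*, which was chosen on this difference, was not tested, nor were *Itgae* and *Cd209a*, which stayed under the filter. In this test 1.95% of all tested genes were higher and 1.27% lower.

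Of these, 3 are maturation genes with a larger rise with the label steatotic. *Marcksl1* differed by 0.71 (SE 0.089, adjusted p = 0.00674), from 86.4 and 92.0 CPM with Veh to 148 and 165 CPM with CC with the label steatotic. With the label normal it had 146.1 to 152.6 CPM with Veh and 157.6 to 162.5 CPM with CC, so levels with CC overlapped between livers. *Cd80*, a costimulatory gene, differed by 0.59 (SE 0.107, adjusted p = 0.0294), and *Relb*, an NF-κB subunit gene that dendritic cells need to mature, by 0.53 (SE 0.075, adjusted p = 0.0117). All 3 were called higher with CC with the label steatotic, and none was called with the label normal.

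The other 2 are genes of the type 1 list. *Cadm1* differed by −0.50 (SE 0.085, adjusted p = 0.0236), with 209 to 215 CPM with Veh and 158 to 161 CPM with CC with the label steatotic. *Rab7b* differed by −0.41 (SE 0.068, adjusted p = 0.0212). Both fell with CC with the label steatotic and were not called with the label normal.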

How the results depend on the processing

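At Veh, 2 of the 7 tested genes were called between livers, but 1 at a filter of 1 CPM in at least 2 libraries and 1 with counts divided by 4, and 0 to 2 when 1 library was left out. With the label normal, 1 gene was called with CC, and 0 or 1 when 1 library was left out. With CC, 1 gene was called between livers, 0 at the filter of 1 CPM in at least 2 libraries, and 0 or 1 when 1 library was left out. The filter at 1 CPM removes *Flt3*, and the libraries that decide these calls are named beside the genes. In the main fit, 4665 of all 15202 tested genes were called between livers at Veh and 4384 with CC. With the label normal, 1795 were called between CC and Veh. Leaving out a library leaves a group with 1 library, assumed to vary like the others. Adjusted p-values over all alternatives ran from 0.0201 to 0.107 for *Clec9a*, from 0.00129 to 0.0904 for *Flt3* at Veh, from 0.000964 to 0.101 for *Flt3* with CC and from 0.000387 to 0.0773 for *Fscn1*. The genes of the dendritic cell lists with a higher response to CC with the label steatotic numbered 3. They numbered 5 by DESeq2 and 5 when all genes with any count were tested. Over the whole table, the calls for this difference in either direction numbered 490, against 737 and 658 with these 2 alternatives. The cause was not tested.

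No replicate block was part of the design, since the labels do not say that numbers pair libraries. With the replicate block, 2, 1, 0, 0 and 1 genes were called in the 5 contrasts, as without it, and 4371 in place of 4665 of all genes at Veh. Deviations of libraries with the same number correlated between groups by −0.00161 to 0.188 over 9995 genes.

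Some log2 values changed sign, all without a call. *Siglech* between livers at Veh was 0.000272 by DESeq2 and 0.000173 with DESeq2 size factors. When 1 library was left out, it ran from −0.0723 to 0.0723, its change with CC with the label normal from −0.092 to 0.63, its difference between responses from −0.51 to 0.21 and its difference between livers with CC from −0.52 to 0.20. *Zbtb46* ran from −0.30 to 0.46 with CC with the label normal, from −0.61 to 0.43 with the label steatotic and from −0.74 to 0.30 for the difference between responses. *Batf3* ran from −1.57 to 0.11 with CC with the label normal and from −0.44 to 1.25 between livers with CC, changing sign without normal CC replicate 2, and *Epcam* from −0.36 to 0.14 for the difference between responses. The cause was not tested.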

Other observations

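Markers of other cells that were listed beside the dendritic cell genes are given here as values; in the contrast at Veh, 16.4% of all tested genes were higher and 14.3% lower with the label steatotic. Of the 11 macrophage markers, 7 were higher and 3 lower with the label steatotic at Veh, among the latter *Lyz2*, the lysozyme gene (−1.16, adjusted p = 7.29e-05), and *Cd68*, a lysosomal glycoprotein gene (−0.74, adjusted p = 7.19e-06). With CC, 9 macrophage markers fell and 1, *Cd14*, rose with the label normal, beside 5.54% and 6.27% of all tested genes, and 8 fell and 2, *Cd14* and *Cd68*, rose with the label steatotic, beside 10.9% and 12.0%. In the Kupffer cell list, *Cd5l*, a secreted scavenger protein gene, was higher with the label steatotic at Veh (0.75, adjusted p = 0.00117), and *Slc40a1*, the iron exporter gene, was lower (−0.94, adjusted p = 1.62e-05). Among monocyte markers, *Ms4a4c* was at 103 to 106 CPM with the label normal and 922 to 926 CPM with the label steatotic at Veh, and *Plac8* at 2.93 to 3.95 CPM and 68.3 to 70.2 CPM. Among NK cell markers, *Gzmb*, which encodes a cytotoxic protease, was at 3.36 to 4.57 CPM and 47.7 to 50.7 CPM, and *Klrk1*, an activating receptor gene, was higher by 2.06 (adjusted p = 2.03e-05).

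Of the T cell list, *Il7r* rose with CC by 1.05 with the label normal and 1.90 with the label steatotic (adjusted p = 9.1e-05 and 2.87e-06), while *Cd4* was called in no contrast. Of 10 B and plasma cell markers, 5 were tested and 1 was lower with the label steatotic at Veh; *Ms4a1* and *Cd79b* stayed under 1.92 CPM. Of 9 neutrophil markers, 6 were under the filter, while *Mmp8*, a collagenase gene, and *Csf3r*, the G-CSF receptor gene, were higher with the label steatotic at Veh (1.04 and 0.96) and *S100a8*, a calcium-binding protein gene, was lower (−0.92, adjusted p = 0.0013). Of 7 basophil and mast cell markers, *Gata2* alone passed the filter and *Mcpt8* did not. Of 10 tested hepatocyte markers, 6 were lower with the label steatotic at Veh, with *Alb*, the albumin gene, at 47.0 to 48.2 CPM with the label normal and 1.24 to 1.93 CPM with the label steatotic, while *Ass1*, a urea cycle enzyme that macrophages also use, was higher (2.35, adjusted p = 1.64e-05). Of 11 tested endothelial markers, 5 were higher and 2 lower with the label steatotic at Veh, with *Pecam1* at 24.9 to 26.0 CPM and 94.9 to 96.8 CPM. Of 3 tested fibroblast markers, *Dcn* was higher (3.22, adjusted p = 1.66e-05) and *Rgs5* was not called (−0.18, adjusted p = 0.663).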
